A study of Mus musculus with 90 samples.

Results

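The Bcl2 family decides whether a cell releases cytochrome c from its mitochondria and enters apoptosis. The 10 genes described here were taken by symbol from a count table of 23420 genes: 3 pro-survival members (Bcl2, Bcl2l1 for Bcl-xL, and Mcl1), 5 BH3-only members (Bcl2l11 for Bim, Bid, Bbc3 for Puma, Pmaip1 for Noxa, and Bmf) and 2 effectors (Bax and Bak1). All 10 symbols were found and all 10 passed the filter on low counts in every fit. The genes were picked by name, with earlier results of these data known. The effectors open pores in the outer mitochondrial membrane, the pro-survival proteins hold them in check, and the BH3-only proteins are sensors that bind and occupy the pro-survival proteins or engage the effectors. In T cells Bim is known for removing activated and self-reactive cells, Bcl2 for keeping naive and memory cells alive, Mcl1 for the survival of T cells at most stages including regulatory T cells (Tregs), and Noxa for binding Mcl1.

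RNA was measured in 90 libraries of sorted mouse T cells. In the Treg series, 30 libraries of wild-type genotype came from 10 groups of 3: Tregs labelled IL10, Ebi3 (the IL35 subunit) or DoubleNeg (DN here) from tumours (TIL), from non-draining lymph nodes (ndLN) and from naive mice, and effector T cells (Teff) from naive mice. In the CD8 series, 60 libraries came from 5 populations: CD8 T cells of non-draining nodes (NDLN), and tumour CD8 T cells that were PD1 negative and TIM3 negative (NEG), PD1 intermediate and TIM3 negative (INT), PD1 high and TIM3 negative (SP), or PD1 high and TIM3 positive (DP). PD1 and TIM3 are inhibitory receptors that T cells gain as they are stimulated over and over. Each CD8 population was taken from 12 sources, a source being the libraries of 1 genotype in 1 library set: 4 labelled DKO, 2 labelled Il10, 3 labelled Ebi3L and 3 labelled yfp. The series' design text describes knockouts of IL10, of IL35 and of both that are restricted to Tregs, so the CD8 cells sorted here are not the cells that carry the deletion. The labels name no strain, age, tumour line or Cre driver. The labels do not say whether replicates are separate mice, and p-values therefore measure spread among libraries, part of which may be technical.

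Bcl2 had the widest range of the 9 members other than Bmf in both series. It was lowest in tumour IL10 Tregs and in tumour CD8 cells with high PD1 and TIM3, and its group means spanned 79.4-fold in the Treg series and 23.9-fold in the CD8 series. The group means of Pmaip1 spanned 59.0-fold and 22.0-fold. It was higher where Bcl2 was lower in tumour against ndLN Tregs and in DP against NEG CD8 cells, and higher where Bcl2 was higher in NEG against NDLN. Bmf spanned 150-fold in the Treg series, but its lowest group mean there rests on 2 counts, and in CD8 cells its lowest group was at 0. The effector Bax spanned 1.57-fold and 2.46-fold. Mcl1 spanned 1.77-fold and 2.68-fold. These spans are ratios of the highest to the lowest group mean of CPM, the count of a gene scaled to the library's total count over all genes.

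The members share a short helix, the BH3 motif, through which they bind each other. The reference coding sequences of that motif are shown because the motif is what makes these genes a family of binding partners. Capitals mark the codon of its conserved leucine and the pair of codons for glycine or alanine followed by aspartate. No sequence is shown for Pmaip1.
Bcl2: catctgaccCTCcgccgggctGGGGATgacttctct
Bcl2l1: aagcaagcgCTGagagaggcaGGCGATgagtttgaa
Mcl1: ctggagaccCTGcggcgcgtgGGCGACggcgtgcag
Bcl2l11: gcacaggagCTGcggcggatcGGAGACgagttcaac
Bid: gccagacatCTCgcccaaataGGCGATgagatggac
Bbc3: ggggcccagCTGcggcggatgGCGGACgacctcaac
Bmf: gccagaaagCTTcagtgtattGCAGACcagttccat
Bax: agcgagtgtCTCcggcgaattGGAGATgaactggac
Bak1: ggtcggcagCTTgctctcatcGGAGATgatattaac
The core motif was found once in the coding sequence of each of these 9 genes. Bbc3 and Bmf had an alanine codon before the aspartate codon, where the other 7 had a glycine codon.

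Bcl2 and Bcl2l11, the survival gene and the death gene whose ratio is described later, fell together in DN Tregs of the tumour, and their RefSeq promoters (GRCm38.p6) are shown for that reason. Each runs from 250 bases before to 50 bases after a start site. The table holds 1 window for Bcl2 and 2 for Bcl2l11, of which the first is shown. Capitals mark matches on either strand to the GC box GGGCGG, the cAMP response element TGACGTCA, the E box CACGTG or the Foxo motif GTAAACA.
Bcl2 chr1:106714241-106714540, minus strand: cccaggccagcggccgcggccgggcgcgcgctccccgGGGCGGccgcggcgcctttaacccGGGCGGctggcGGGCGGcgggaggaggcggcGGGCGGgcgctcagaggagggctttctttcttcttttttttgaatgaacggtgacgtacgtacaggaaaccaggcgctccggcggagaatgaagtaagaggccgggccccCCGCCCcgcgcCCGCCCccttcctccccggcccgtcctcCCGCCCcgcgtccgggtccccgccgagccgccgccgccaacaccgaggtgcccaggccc
Bcl2l11 chr2:128125788-128126087, plus strand: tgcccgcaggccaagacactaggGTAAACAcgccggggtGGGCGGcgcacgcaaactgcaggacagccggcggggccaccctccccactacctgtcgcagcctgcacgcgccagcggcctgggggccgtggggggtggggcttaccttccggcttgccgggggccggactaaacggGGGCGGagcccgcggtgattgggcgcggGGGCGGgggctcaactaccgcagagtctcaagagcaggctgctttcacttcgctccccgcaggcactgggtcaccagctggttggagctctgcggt
The Bcl2 window held 7 GC boxes and no match to the other 3 motifs. The Bcl2l11 window shown held 3 GC boxes and 1 Foxo motif, and its second window, at chr2:128127325-128127624, held 3 GC boxes and no Foxo motif. Over 32851 mouse promoters in the same table, 35.7% held a GC box, 3.65% a Foxo motif, 7.15% an E box and 1.79% a cAMP response element. A match describes letters and not binding.

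Library totals ran from 9729837 to 20217970 counts in the Treg series and from 19215118 to 47701813 counts in the CD8 series, so 3 counts correspond to 0.148 to 0.308 CPM and to 0.0629 to 0.156 CPM. Group means of Foxp3, the Treg transcription factor, were 45.9 to 93.1 CPM in Tregs and 24.4 CPM in Teff, and those of Il2ra were 376 to 758 CPM in Tregs and 2.81 CPM in Teff. The Teff libraries thus held Foxp3 reads. Cd8a averaged 794 to 1450 CPM in the yfp CD8 groups, where Cd4 was 0 to 4.26 CPM in single libraries. No 2 replicates of a group agreed within counting noise, so none was taken for the same library counted again and all 90 were kept. This cannot tell whether replicates came from separate cells or mice, because preparing a library adds spread of its own.

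On GRCm38 (mm10), Bcl2 lies at chr1:106538178-106714274 and Bcl2l1 at chr2:152780668-152831728, both on the minus strand, and Mcl1 at chr3:95658788-95663176 on the plus strand. Of the BH3-only genes, Bcl2l11 is at chr2:128126038-128162547, Bbc3 at chr7:16308393-16318205 and Pmaip1 at chr18:66458533-66465565 on the plus strand, and Bid at chr6:120891930-120916853 and Bmf at chr2:118528757-118549687 on the minus strand. Bax is at chr7:45461697-45466898 and Bak1 at chr17:27019810-27029009, both on the minus strand. Reads were assigned to exons of genes, and 4 members share annotated exon bases with another gene. Bcl2 shares 558 bases with the antisense gene D630008O14Rik, Bid shares 628 with Bcl2l13 and Bak1 shares 614 with Ggnbp1, all on the opposite strand, and Bax shares 192 with Gm45808 on its own strand. Whether the counting used strand is not stated in the labels, so reads in those stretches cannot be told apart.

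Per kilobase of exon, Bax and Mcl1 were the most abundant members in both series. In the Treg series the mean over libraries was 79.5 CPM per kilobase for Bax and 56.2 for Mcl1, followed by Bid at 26.1, Pmaip1 at 19.3, Bcl2l1 at 12.6, Bcl2 at 9.51 and Bcl2l11 at 3.57. In CD8 cells Bax was at 122, Mcl1 at 64.7, Bcl2 at 45.3, Bid at 20.2, Pmaip1 at 14, Bcl2l11 at 7.81 and Bcl2l1 at 5.99. Averaged over all libraries of a series, Bcl2 thus ranked above Bid, Pmaip1 and Bcl2l1 in CD8 cells and below all 3 in the Treg series. The order differed between groups of a series. In naive DN Tregs Bcl2 averaged 301.2 CPM over 9.157 kilobases of exon, and Bid 75.43 CPM over 3.55 kilobases. Per kilobase Bcl2 was thus above Bid there. In DP cells of all sources Bcl2 averaged 81.63 CPM and Bid 92.98 CPM, so Bcl2 was below Bid. Bbc3, Bak1 and Bmf were the 3 lowest members in both series, between 0.201 and 2.67 CPM per kilobase. Bmf was at 0 in 4 Treg-series libraries and 16 CD8 libraries, which at the depths above limits it to the CPM of 3 counts there.

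**Figure D1:**
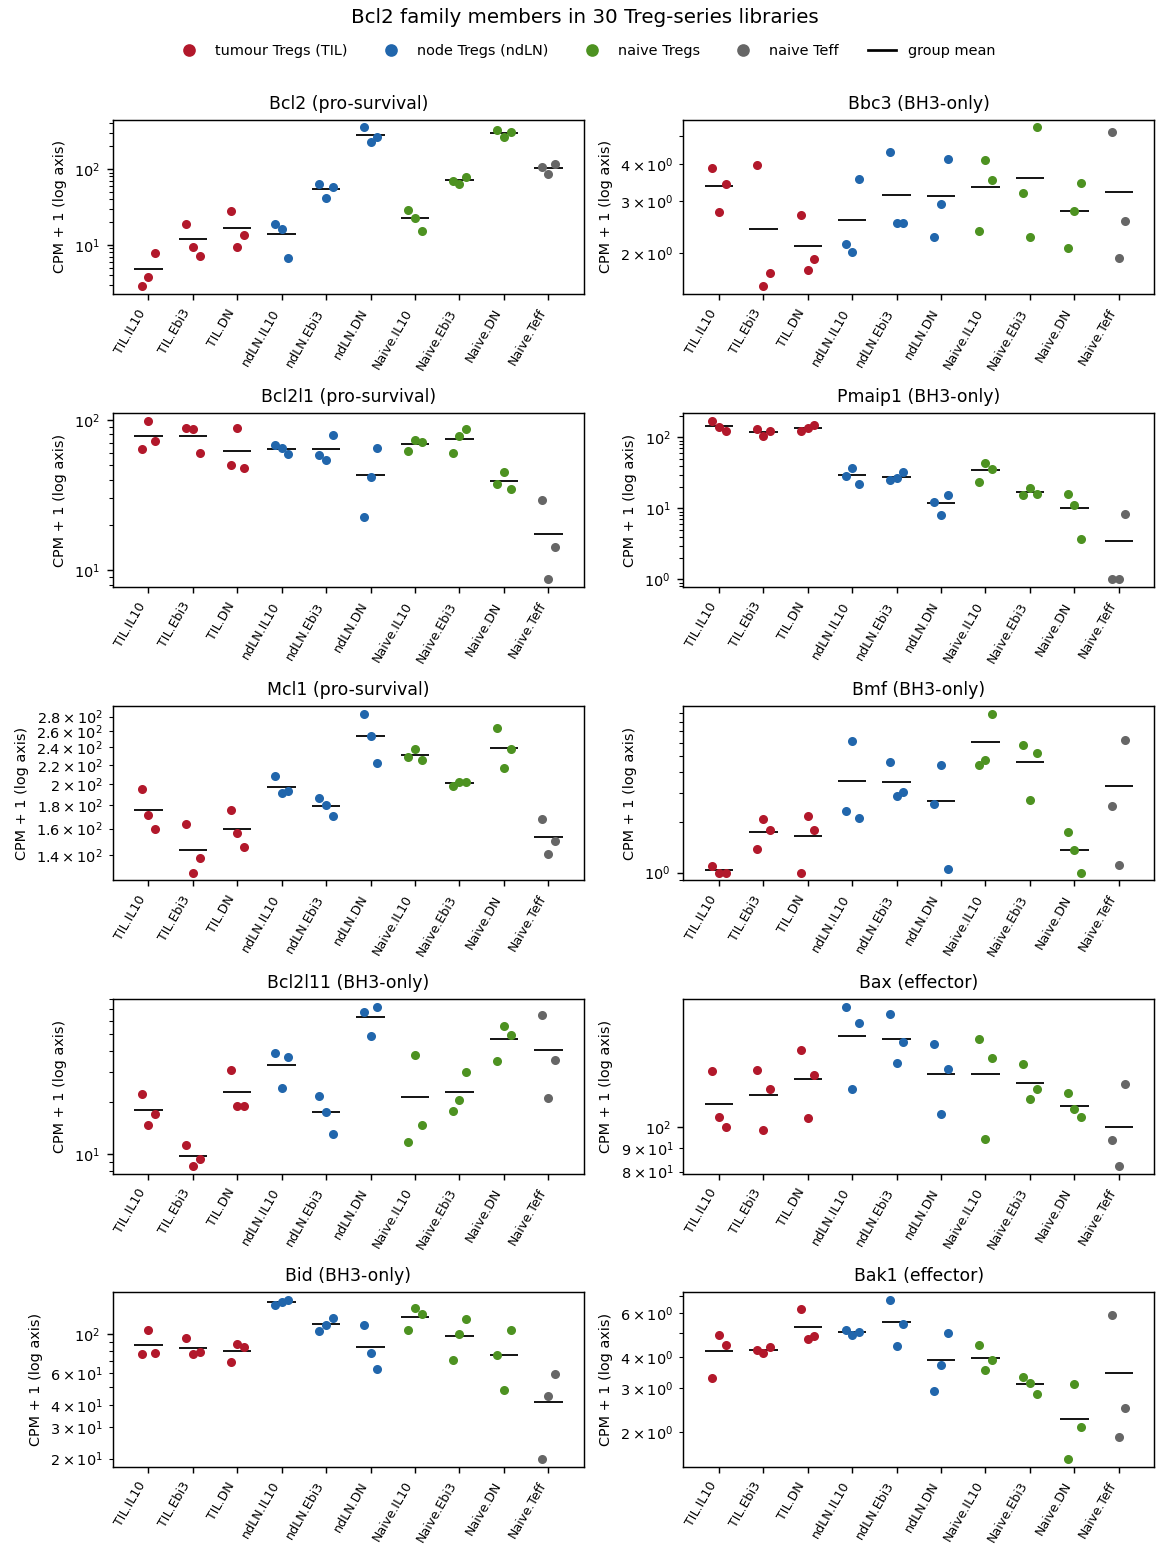
Level of each member in the 30 Treg-series libraries, as CPM + 1 on a log axis, 1 panel per member. Points are libraries, horizontal lines are group means, and colours separate tumour, node and naive Tregs and naive Teff. Bcl2 is highest in DN Tregs of ndLN and naive mice (means of 280.7 and 301.2 CPM) and lowest in tumour IL10 Tregs (3.792 CPM), while Pmaip1 is highest in all 3 tumour groups.

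Naive DN Tregs carried more RNA of all 3 pro-survival genes than Teff of the same site, and more Bid. Bcl2 was at 329.7, 266.2 and 307.8 CPM in DN Tregs and at 104.2, 84.28 and 113.8 CPM in Teff. Mcl1 was at 263.0, 215.2 and 237.1 CPM in DN Tregs and at 167.2, 139.6 and 149.5 CPM in Teff. Neither gene's groups overlapped, and in bulk samples fewer cells that express a gene and less RNA per cell cannot be told apart. By edgeR's quasi-likelihood test with Benjamini-Hochberg adjustment over all genes, with batch as a block, 4 of the 10 members rose and none fell, where 12.2% of all tested genes passed (8.79% higher). Bcl2 rose by 1.61 ± 0.38 on the log2 scale (SE, n = 3 each, adjusted p = 0.0058) and Mcl1 by 0.68 ± 0.09 (adjusted p = 4.22e-06).

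Bcl2l1, whose product protects mitochondria alongside Bcl2, was at 36.22, 43.83 and 33.71 CPM in DN Tregs and at 28.43, 7.708 and 13.37 CPM in Teff. It rose by 1.20 ± 0.35 (adjusted p = 0.0241). Bid, which death receptors activate through caspase-8, was at 74.91, 47.39 and 104.0 CPM in DN Tregs and at 18.95, 44.09 and 58.58 CPM in Teff, and rose by 0.96 ± 0.28 (adjusted p = 0.0209) although its groups overlapped. The members' median change was 0.49, against 0.03 over all genes. Pmaip1 was at 0, 0 and 7.331 CPM in Teff and did not pass (1.99 ± 0.81, adjusted p = 0.124), nor did Bcl2l11 (0.30 ± 0.38, adjusted p = 0.705) or Bax (0.20 ± 0.13, adjusted p = 0.382). The Mcl1 call held with each batch left out. The other 3 did not: without batch 2 Bcl2 gave 1.59 (adjusted p = 0.0914), Bcl2l1 gave 0.78 without batch 2 (adjusted p = 0.296), 1.14 without batch 3 (0.144) and 1.87 without batch 1 (0.00214), and Bid gave 0.55 without batch 1 (0.235) and 1.04 without batch 3 (0.0808).

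Markers of other cells and states differed between naive DN Tregs and Teff as well. The summed B cell list was at 31.0 to 72.0 CPM in DN Tregs and at 0.617 to 4.21 CPM in Teff, most of it in DN Tregs from Cd79b (29.2 to 57.3 CPM in DN Tregs and 0.0682 to 2.44 CPM in Teff), with 1 of 3 tested genes higher and Pax5 at 0 in both. The summed myeloid list was at 112 to 266 CPM in DN Tregs and at 7.74 to 13.5 CPM in Teff, most of it from Cd74, with Csf1r at 0 in both. Summed proliferation markers were at 61.6 to 170 CPM in DN Tregs and at 2.31 to 94.7 CPM in Teff. The part of these in the member changes was not tested.

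In ndLN and in naive mice, IL10 and Ebi3 Tregs had far less Bcl2 than DN Tregs, and IL10 Tregs had the least. In ndLN, Bcl2 was at 17.77, 15.1 and 5.688 CPM in IL10 Tregs, at 62.03, 39.97 and 57.82 CPM in Ebi3 Tregs, and at 352.2, 224.1 and 266.0 CPM in DN Tregs. In naive mice it was at 27.95, 21.79 and 14.31 CPM in IL10 Tregs, at 68.61, 62.87 and 78.41 CPM in Ebi3 Tregs, and at 329.7, 266.2 and 307.8 CPM in DN Tregs. At both sites the 3 subsets did not overlap. In ndLN the log2 fold changes of Bcl2 were -4.45 ± 0.44 in IL10 against DN Tregs (adjusted p = 9.51e-08), -2.44 ± 0.39 in Ebi3 against DN Tregs (0.000153) and -2.01 ± 0.40 in IL10 against Ebi3 Tregs (0.00283).

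In naive mice they were -3.84 ± 0.42 in IL10 against DN Tregs (adjusted p = 3.92e-07), -2.17 ± 0.39 in Ebi3 against DN Tregs (0.000483) and -1.67 ± 0.39 in IL10 against Ebi3 Tregs (0.00998). The shares of all genes that passed were 16.2%, 13% and 5.07% in ndLN and 17.8%, 12.8% and 5.48% in naive mice, in the same order of comparisons, and Bcl2 was called in all 6. The IL10 against Ebi3 call in naive mice did not hold without batch 2 (-1.77, adjusted p = 0.143), while the other 5 held with each batch left out. Summed CPM of the 4 proliferation markers (Mki67, Top2a, Ccnb1 and Cdk1) moved with the subsets: it was 696 to 745 in IL10, 985 to 1390 in Ebi3 and 166 to 286 in DN Tregs of ndLN. Its part in the Bcl2 differences was not tested.

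Bcl2l11 was also lower in Ebi3 than in DN Tregs. In ndLN it was at 20.9, 16.53 and 12.02 CPM in Ebi3 Tregs and at 66.7, 47.82 and 71.24 CPM in DN Tregs, with no overlap, and it fell by 1.97 ± 0.39 (adjusted p = 0.00106). In naive mice it was at 16.72, 19.61 and 29.2 CPM in Ebi3 Tregs, at 10.74, 36.94 and 13.82 CPM in IL10 Tregs, and at 34.07, 54.76 and 48.46 CPM in DN Tregs. The Ebi3 libraries lay below the DN libraries and the IL10 libraries overlapped them. It fell there too, with log2 fold changes of -1.16 ± 0.39 in Ebi3 against DN Tregs (adjusted p = 0.048) and -1.15 ± 0.39 in IL10 against DN Tregs (0.0393). Without batch 3 the ndLN change was -1.64 with an adjusted p of 0.0796. The naive Ebi3 call was lost with any batch left out (adjusted p = 0.0874, 0.176 and 0.152 without batches 1, 2 and 3). The naive IL10 call was lost without batch 1 (-1.03, 0.12) and batch 3 (-0.87, 0.355) and was -1.73 without batch 2 (0.00635).

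Mcl1 differed between subsets by small amounts. In ndLN it was at 206.9, 190.0 and 191.9 CPM in IL10 Tregs, at 185.1, 179.2 and 169.5 CPM in Ebi3 Tregs, and at 283.0, 252.9 and 221.5 CPM in DN Tregs. Both subsets lay below every DN library. Its log2 fold changes were -0.35 ± 0.09 in IL10 against DN Tregs (adjusted p = 0.0074) and -0.55 ± 0.09 in Ebi3 against DN Tregs (0.00012), and in naive mice -0.33 ± 0.09 in Ebi3 against DN Tregs (0.0136). The ndLN Ebi3 call held with each batch left out. The ndLN IL10 call was lost with any of the 3 left out (adjusted p = 0.144, 0.0961 and 0.0668 without batches 1, 2 and 3), as was the naive Ebi3 call (0.185, 0.0526 and 0.202). The naive Ebi3 call was also lost with library totals alone (0.0798) and in limma (0.0731). Without batch as a block both calls were lost (0.117 in ndLN IL10 and 0.166 in naive Ebi3 Tregs).

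Bid was at 143.5, 149.7 and 153.5 CPM in ndLN IL10 Tregs and at 110.7, 77.29 and 62.05 CPM in ndLN DN Tregs, and rose by 0.81 ± 0.27 (adjusted p = 0.0395). The IL10 libraries were all above the DN libraries, but the call was lost without batch 2 (0.74, adjusted p = 0.244) and without batch 3 (0.64, 0.262). Some members without a call were higher than in DN Tregs. Pmaip1 averaged 33.63 CPM in naive IL10 and 9.172 CPM in naive DN Tregs, with no overlap (1.82, 0.0875). In ndLN it averaged 28.4 and 10.88 CPM, again with no overlap (1.40, 0.193). Bcl2l1 averaged 67.99 CPM in naive IL10, 73.9 in naive Ebi3 and 37.92 in naive DN Tregs. The members' median change in naive IL10 against DN Tregs was 0.59, against 0.006 over all genes. In the tumour, 2 member calls were made between subsets over 3 comparisons. Bcl2 was at 1.849, 2.794 and 6.735 CPM in IL10 Tregs, at 17.98, 8.39 and 6.208 CPM in Ebi3 Tregs, and at 26.65, 8.312 and 12.47 CPM in DN Tregs. The IL10 libraries lay below the DN libraries, and the Ebi3 libraries overlapped both. Bcl2 fell by 1.87 ± 0.43 in tumour IL10 against tumour DN Tregs (adjusted p = 0.0375), where 0.837% of genes passed. That call was lost without batch 1 (-1.05, 0.641) and without batch 2 (-1.98, 0.316).

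Tumour IL10 against tumour Ebi3 Tregs gave 1 member call, where 2.84% of genes passed. Mcl1, at 193.7, 170.1 and 158.6 CPM in IL10 and at 162.9, 127.4 and 137.4 CPM in Ebi3 Tregs, rose by 0.36 ± 0.09 (adjusted p = 0.0279) with overlapping groups, and lost the call with any batch left out (0.154, 0.262 and 0.45 without batches 1, 2 and 3). This Mcl1 call was also lost with library totals alone (0.0926), in limma (0.0759) and without the filter on low counts (0.0561). Tumour Ebi3 against tumour DN Tregs gave 0 member calls in edgeR and 0 in limma on the deposited log2 values. Of all genes, 0.713% passed in edgeR and 1241 of 12907 had an unadjusted p under 0.05. The share of all genes that DESeq2 called is not reported here. DESeq2 called 1 member, which was also the 1 with an unadjusted p under 0.05. That member was Bcl2l11, at 10.34, 7.543 and 8.378 CPM in Ebi3 and 29.9, 18.11 and 17.96 CPM in DN Tregs (-1.33 ± 0.39, adjusted p = 0.147 in edgeR). Over the 9 comparisons between subsets, 15 member calls were made with batch as a block and 7 without it. The 7 included the 5 Bcl2 calls that held in ndLN and naive mice.

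Tumour Tregs differed from ndLN Tregs by less Bcl2 and more Pmaip1, in all 3 subsets. Bcl2 was at 26.65, 8.312 and 12.47 CPM in tumour DN Tregs and at 352.2, 224.1 and 266.0 CPM in ndLN DN Tregs, which did not overlap. It fell by 4.08 ± 0.43 (adjusted p = 1.52e-07). In Ebi3 Tregs it was at 17.98, 8.39 and 6.208 CPM in the tumour and at 62.03, 39.97 and 57.82 CPM in ndLN, and fell by 2.19 ± 0.40 (0.000513), again with no overlap. In IL10 Tregs the tumour libraries at 1.849, 2.794 and 6.735 CPM overlapped the ndLN libraries at 17.77, 15.1 and 5.688 CPM, and Bcl2 fell by 1.50 ± 0.44 (0.03). It was lower in the tumour in 2 of the 3 batches of IL10 Tregs, and the call was lost without batch 1 (-0.94, 0.3) and batch 2 (-1.08, 0.382) and was -2.70 without batch 3 (0.000269). Of all genes, 23.4% passed in DN Tregs, 10.3% in Ebi3 Tregs and 9.32% in IL10 Tregs, and 4, 2 and 3 of the 10 members did.

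Pmaip1, a p53 target whose product Noxa binds Mcl1, was at 123.0, 135.2 and 147.3 CPM in tumour DN Tregs and at 11.18, 7.019 and 14.43 CPM in ndLN DN Tregs. In IL10 Tregs it was at 172.1, 137.9 and 122.9 CPM in the tumour and at 27.23, 36.63 and 21.36 CPM in ndLN. In Ebi3 Tregs it was at 131.5, 104.5 and 122.3 CPM in the tumour and at 24.42, 25.96 and 31.16 CPM in ndLN. The lowest tumour library was above the highest ndLN library in each subset. Pmaip1 rose by 3.76 ± 0.75 in DN Tregs (adjusted p = 0.000836), by 2.51 ± 0.70 in IL10 Tregs (0.0257) and by 2.30 ± 0.69 in Ebi3 Tregs (0.0376). The DN call held under every alternative run. The IL10 call was lost without batch 1 (2.32, 0.145) and batch 2 (2.79, 0.0902), and the Ebi3 call likewise (2.16, 0.17 and 2.37, 0.164). DESeq2 and limma did not call Pmaip1 in IL10 Tregs (0.053 and 0.191) or in Ebi3 Tregs (0.076 and 0.253).

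DN Tregs of the tumour also had less Mcl1 and Bcl2l11. Mcl1 was at 174.2, 155.6 and 145.2 CPM in tumour DN Tregs and at 283.0, 252.9 and 221.5 CPM in ndLN DN Tregs, a log2 fold change of -0.55 ± 0.09 (adjusted p = 4.76e-05). Bcl2l11 was at 29.9, 18.11 and 17.96 CPM in tumour DN Tregs and at 66.7, 47.82 and 71.24 CPM in ndLN DN Tregs, a change of -1.39 ± 0.39 (0.00969). Neither gene's groups overlapped, and the Bcl2l11 change was -1.15 without batch 3 (0.165). The direction for Mcl1 in the other subsets was not called (-0.01 ± 0.09 in IL10 and -0.16 ± 0.09 in Ebi3 Tregs). Bcl2l1 gave 0.66 ± 0.34 in DN, 0.45 ± 0.34 in IL10 and 0.46 ± 0.34 in Ebi3 Tregs and passed in none (adjusted p = 0.176, 0.492 and 0.483). Bax gave 0.08 ± 0.13, -0.30 ± 0.13 and -0.25 ± 0.13 in the same order and passed in none. These results depend on the scaling. With library totals alone and in limma on the deposited log2 values, Bax was called lower in tumour IL10 and Ebi3 Tregs. Mcl1 was called lower in tumour Ebi3 Tregs under the same 2 alternatives.

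Bmf, a BH3-only sensor of the cytoskeleton, had 2 counts in total over the 3 tumour IL10 libraries and 107 over the 3 ndLN IL10 libraries. Per total count that is a ratio of 0.0172, with an exact 95% counting interval of 0.00205 to 0.0635 that covers counting error only. The fit called it (adjusted p = 0.0462), and its fitted fold change depends on a prior count and is not a bound. The call was lost with any batch left out (0.1, 0.315 and 0.199 without batches 1, 2 and 3). Without batch as a block, 5 of the 9 member calls over the 3 tumour comparisons held. Without TMM factors the median over all genes shifted by -0.11 in DN, -0.17 in IL10 and -0.16 in Ebi3 Tregs, and the share of called genes that were higher in the tumour was 42.8%, 31.7% and 36.3%, against 55.1%, 59.6% and 60.8% with TMM.

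Other markers moved with the tumour as well. Summed proliferation markers were at 487 to 801 CPM in tumour DN Tregs and at 166 to 286 CPM in ndLN DN Tregs. The summed myeloid list was at 610 to 832 CPM in tumour DN Tregs and at 128 to 259 CPM in ndLN DN Tregs, with 3 of 7 tested genes higher. Most of that sum was Cd74, at 541 to 726 CPM and 125 to 251 CPM, while Csf1r was at 0 in both groups and Lyz2 reached 0.841 CPM in the tumour and 0 in ndLN. The pigment-cell gene Tyrp1 was at 2.4 to 4.77 CPM in tumour DN Tregs and at 0 in ndLN DN Tregs. The part of these cells and states in the member changes was not tested.

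**Figure D2:**
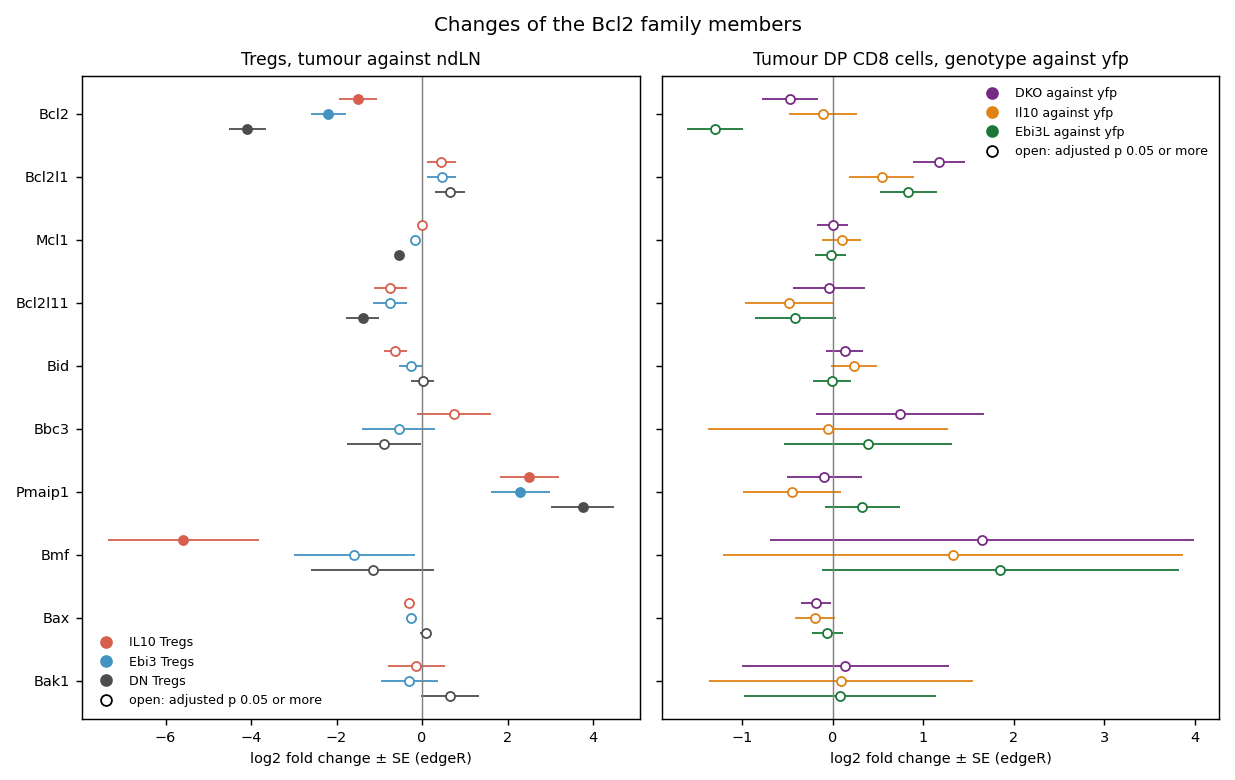
Left, edgeR log2 fold change ± SE of each member in tumour against ndLN Tregs of the IL10, Ebi3 and DN subsets. Right, the same for tumour DP CD8 cells of DKO, Il10 and Ebi3L against yfp sources. Filled points have an adjusted p under 0.05. On the left Bcl2 falls and Pmaip1 rises in all 3 subsets, and the Bmf point of IL10 Tregs rests on 2 against 107 counts. On the right no point is filled.

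The fall of Bcl2 in the tumour differed in size between IL10 and DN Tregs. The change in IL10 Tregs minus that in DN Tregs was 2.58 ± 0.59 for Bcl2 (edgeR interaction term, adjusted p = 0.0104) and 0.54 ± 0.13 for Mcl1 (adjusted p = 0.0113), where 4.49% of all genes passed. The ndLN level of Bcl2 was lower in IL10 Tregs (12.85 ± 6.35 CPM) than in DN Tregs (280.7 ± 65.3 CPM, SD, n = 3 each). Without batch 2 the Bcl2 difference was 2.82 (0.114) and without batch 3 it was 1.29 (0.25). The Mcl1 difference missed the threshold with any batch left out (0.168, 0.134 and 0.143 without batches 1, 2 and 3), and neither held without batch as a block (adjusted p = 0.063 for Bcl2 and 0.191 for Mcl1). For Ebi3 minus DN Tregs the differences were 1.89 ± 0.55 for Bcl2 (0.0933) and 0.39 ± 0.13 for Mcl1 (0.149). There edgeR called 0 members and limma 0, DESeq2 called 2, and 1.61% of all genes passed in edgeR. The share of all genes that passed in DESeq2 is not reported here. An unadjusted p under 0.05 was given to 2 members and to 1694 of 12907 genes.

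Between ndLN and naive Tregs the members did not differ detectably. In edgeR 0 of 30 pairs of member and comparison passed, as in DESeq2 and limma, and 3 had an unadjusted p under 0.05 (10.0%, where 4.75% to 7.43% of all genes did in single comparisons). Those 3 were Mcl1 and Bax in IL10 Tregs and Bax in Ebi3 Tregs. Bcl2 was at 352.2, 224.1 and 266.0 CPM in ndLN DN Tregs and at 329.7, 266.2 and 307.8 CPM in naive DN Tregs, ranges that overlap. In Ebi3 Tregs it averaged 53.28 CPM in ndLN and 69.97 CPM in naive mice, with no overlap. In IL10 Tregs it averaged 12.85 and 21.35 CPM, with overlap. Mcl1 was lower without overlap in ndLN IL10 and Ebi3 Tregs. Higher without overlap were Bid and Bak1 in IL10 and Pmaip1, Bax and Bak1 in Ebi3 Tregs. The share of all genes without overlap is not reported here. The shares of all genes that passed were 0.0852% in DN, 0.0542% in IL10 and 0.00775% in Ebi3 Tregs.

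The balance of death sensor to survival gene can be read within each library as the log2 ratio of Bcl2l11 to Bcl2 counts, a description for which no test is given. Tumour IL10 Tregs had the highest mean at 2.364 (1.259 to 3.535 over 3 libraries), and ndLN IL10 Tregs followed at 1.455 (0.6267 to 2.647). These 2 groups overlapped, and in batch 3 the ratio was 1.259 in the tumour and 2.647 in ndLN. Tumour DN Tregs were at 0.6053 (0.1662 to 1.123), against -2.177 (-2.401 to -1.9) in ndLN and -2.741 in naive DN Tregs. Tumour Ebi3 Tregs were at -0.1729, against -1.703 in ndLN and -1.714 in naive Ebi3 Tregs. Bcl2l11 itself was called lower or not called in each of the tumour comparisons, so the higher mean ratios there went with lower mean Bcl2. Teff were at -1.49. The ratio of Bcl2l1 to Bcl2 was likewise highest in tumour IL10 Tregs, at 4.536, and lowest in naive DN Tregs, at -2.993.

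**Figure D3:**
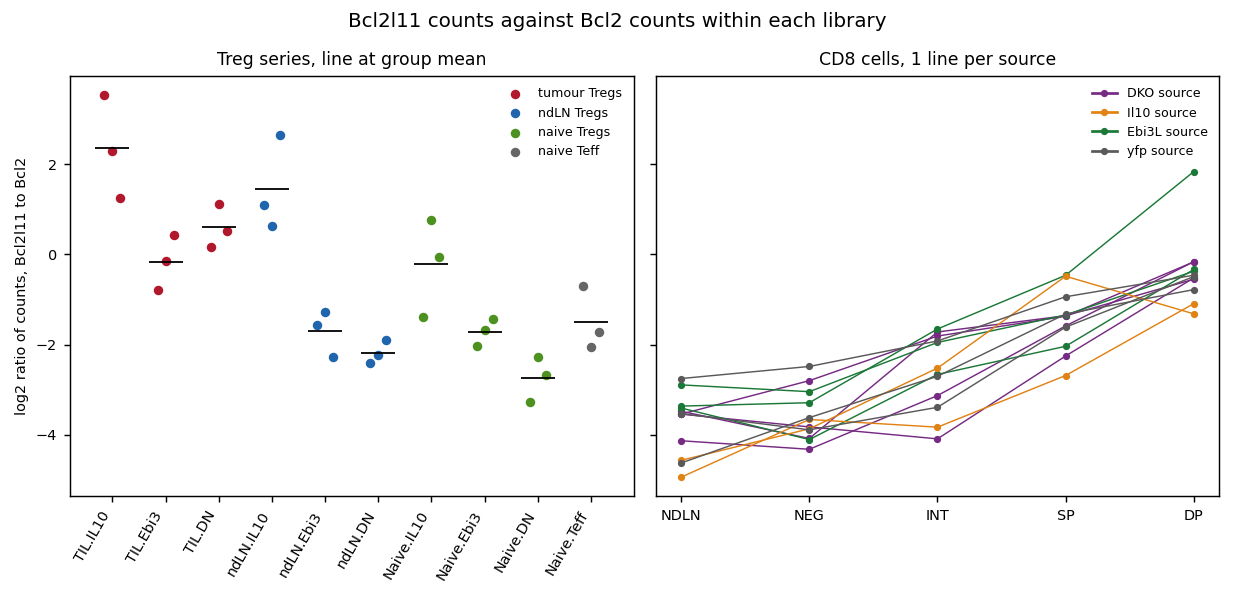
Log2 ratio of Bcl2l11 counts to Bcl2 counts within each library. Left, the Treg series with 3 libraries per group and lines at group means. Right, the 5 CD8 populations with 1 line per source. The group means run from -2.741 in naive DN Tregs to 2.364 in tumour IL10 Tregs, and in CD8 cells from -3.729 in NDLN to -0.3672 in DP.

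In CD8 cells of the yfp sources, Bcl2 was highest in NEG and lowest in DP cells. It was at 471.9, 323.9 and 384.9 CPM in NDLN, at 1024, 643.8 and 822.2 in NEG, at 638.6, 499.5 and 252.5 in INT, at 192.9, 226.2 and 152.0 in SP and at 72.78, 143.0 and 107.9 in DP. Pmaip1 was at 12.59, 12.37 and 3.232 CPM in NDLN, at 9.495, 23.86 and 8.486 in NEG, at 37.02, 29.86 and 17.16 in INT, at 74.48, 72.78 and 41.1 in SP and at 115.4, 83.55 and 37.31 in DP. The DP and NEG libraries did not overlap for either gene. Against NEG, DP cells had less Bcl2 (-2.91 ± 0.31, adjusted p = 2.11e-05) and Mcl1 (-1.17 ± 0.19, 0.000383), and more Pmaip1 (2.46 ± 0.33, 8.16e-05), Bid (0.98 ± 0.21, 0.00238) and Bax (0.45 ± 0.16, 0.0439). That is 5 of 10 members, where 33.2% of all genes passed.

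Of these, Bax lost its call without the second yfp source (0.38, adjusted p = 0.103) and without the third source (0.30, 0.362), and the other 4 held with each source left out. Between neighbouring populations, SP against INT gave 2 calls, where 4.89% of genes passed. Bcl2 fell by 1.28 ± 0.29 (0.0258) and Pmaip1 rose by 1.16 ± 0.31 (0.0473), and both calls were lost with any source left out (0.174, 0.132 and 0.0778 for Bcl2, and 0.116, 0.176 and 0.24 for Pmaip1, without sources 1, 2 and 3). NEG against NDLN, INT against NEG and DP against SP gave 0 member calls in edgeR and in limma, where 1.56%, 0.938% and 1.21% of all genes passed. DESeq2 called 2, 1 and 0 members there, and its shares of all genes are not reported here. In edgeR 5, 6 and 2 of the 10 members had an unadjusted p under 0.05, as did 1931, 1697 and 1516 of all 12791 genes. With the library set as a block in place of batch, Bcl2l11 passed in NEG against NDLN (1.40 ± 0.27, adjusted p = 0.0166, against 1.46 and 0.0797 with batch).

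**Figure D4:**
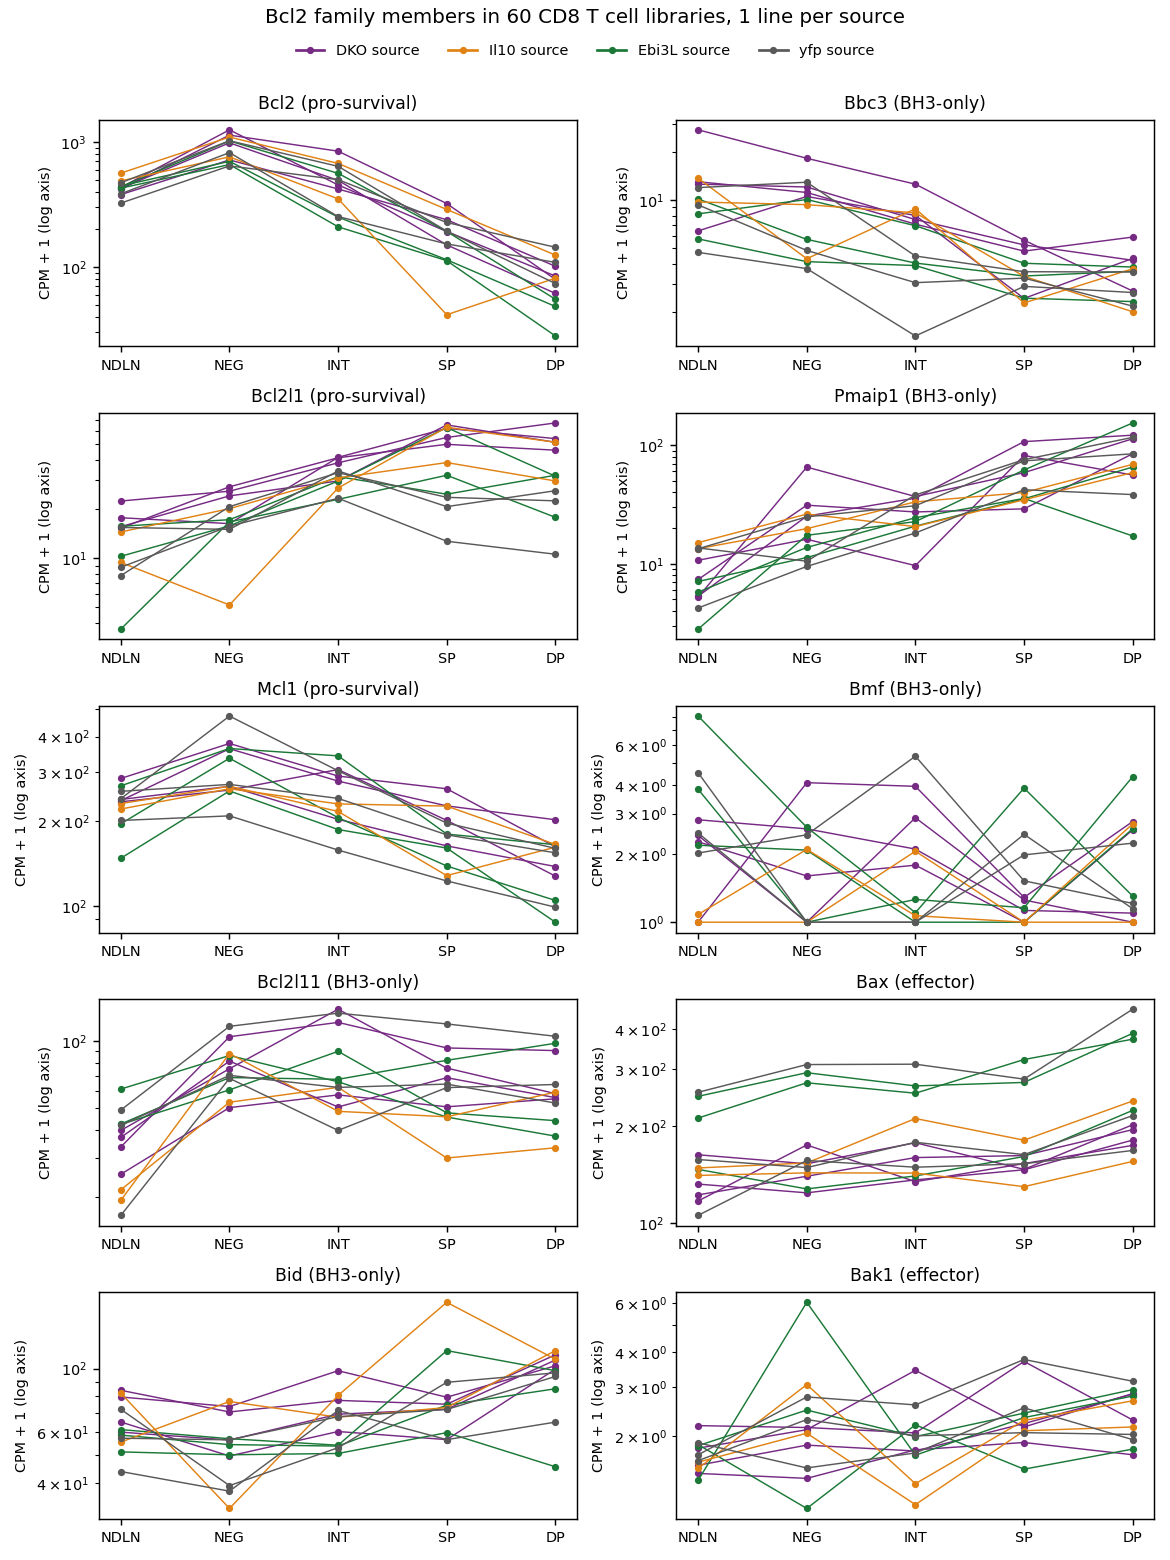
Level of each member in the 60 CD8 libraries, as CPM + 1 on a log axis, 1 panel per member. Each line joins the 5 populations of 1 source and is coloured by genotype. Bcl2 peaks in NEG and falls through INT and SP to DP (medians of 903.7, 473.1, 191.5 and 79.53 CPM), Pmaip1 climbs from 6.223 CPM in NDLN to 75.72 CPM in DP, and in Bax the 3 sources of batch 3 lie above the others.

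Taking all 12 sources with the source as a block, members passed the test at each step between the node, the PD1 negative tumour cells and the DP cells. Bcl2 had a median of 429.5 CPM in NDLN (323.9 to 563.8), 903.7 in NEG (643.8 to 1253.0), 473.1 in INT (208.8 to 844.9), 191.5 in SP (40.49 to 321.2) and 79.53 in DP (27.06 to 143.0). NEG was above NDLN in 12 of 12 sources with no overlap. DP was below NEG in 12 of 12 with no overlap. The yfp sources are among these 12, so the values above and here are not independent.

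In NEG against NDLN, tumour cells without PD1 set against node cells, 6 of the 10 members rose and none fell, where 15.6% of 14734 genes passed (10.3% higher). All 3 pro-survival genes rose: Bcl2 by 1.08 ± 0.18 (n = 12 each, adjusted p = 1.61e-05), Mcl1 by 0.49 ± 0.08 (1.33e-05) and Bcl2l1 by 0.69 ± 0.22 (0.0204). Of the BH3-only genes, Bcl2l11 rose by 1.22 ± 0.16 (4.17e-08), with medians of 71.62 CPM in NEG and 37.44 CPM in NDLN, in 12 of 12 sources. Pmaip1 rose by 1.48 ± 0.28 (8.29e-05), in 11 of 12. Bax rose by 0.23 ± 0.07 (0.00992), in 8 of 12. Bcl2l1 lost its call without the second Ebi3L source (0.56, 0.0703) and without the first yfp source (0.61, 0.0676), and Bax lost it without the first DKO source (0.19, 0.0513), with library totals alone (0.15, 0.0881) and in limma (0.17, 0.0503). The median of the members was 0.59, against 0.01 over all genes.

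From NEG through INT and SP to DP, Bcl2 and Mcl1 fell at each step. The last step is one of TIM3, as SP and DP cells are both PD1 high. The log2 fold changes of Bcl2 were -1.05 ± 0.18 in INT against NEG (adjusted p = 4.83e-05), -1.39 ± 0.18 in SP against INT (1.26e-07) and -1.06 ± 0.18 in DP against SP (1.96e-05). It was lower in 12, 12 and 11 of 12 sources, the exception in DP against SP being the first Il10 source, at 80.47 CPM in DP and 40.49 CPM in SP. Those of Mcl1 were -0.37 ± 0.08 (0.0013), -0.47 ± 0.08 (1.87e-05) and -0.26 ± 0.08 (0.0171) over the same steps. The last of these was lost without the fourth DKO source (-0.23, 0.0672) and without the third Ebi3L source (-0.22, 0.069). The shares of all genes that passed were 13%, 27.8% and 22.4%, and 3, 4 and 3 members did.

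Of the other members, Bcl2l1, Bbc3, Pmaip1 and Bax passed at 1 step each between NEG and DP, and Bcl2l11, Bid, Bmf and Bak1 passed at none. Bcl2l1 rose in INT against NEG by 0.79 ± 0.21 (adjusted p = 0.00823), with medians of 30.24 CPM in INT and 15.92 CPM in NEG, in 12 of 12 sources. Bbc3, a p53 target whose product Puma binds all pro-survival members, fell in SP against INT (-0.94 ± 0.29, 0.0113), with medians of 2.345 CPM in SP and 5.986 CPM in INT. Pmaip1 rose at that step by 1.07 ± 0.27 (0.00182), in 12 of 12 sources. Bax rose in DP against SP by 0.45 ± 0.07 (4.39e-07), with medians of 207.6 CPM in DP and 160.4 CPM in SP, in 12 of 12 sources.

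Over the whole span, DP against NEG, 7 of the 10 members passed, 4 higher and 3 lower, where 57.1% of all genes passed (30.1% higher and 27% lower), so the count of members is near the background. The members that fell were Bcl2 (-3.50 ± 0.20, adjusted p = 7.99e-20), Mcl1 (-1.10 ± 0.08, 2.1e-16) and Bbc3 (-1.55 ± 0.29, 8.02e-06). Pmaip1 rose by 1.93 ± 0.28 (4.14e-08), Bcl2l1 by 0.92 ± 0.22 (0.000274), Bid by 0.79 ± 0.12 (3.06e-07) and Bax by 0.43 ± 0.07 (1.02e-07). The 3 pro-survival genes thus split, with Bcl2l1 higher and Bcl2 and Mcl1 lower in DP. Bcl2l11 did not pass (-0.31 ± 0.16, 0.0826), with medians of 55.97 CPM in DP and 71.62 CPM in NEG. The log2 ratio of Bcl2l11 to Bcl2 counts averaged -0.3672 in DP (-1.317 to 1.836 over 12 sources) and -3.58 in NEG (-4.319 to -2.483). All 7 calls held with each source left out and under the other tools and scalings run.

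Cell-state markers moved along the same axis. In the yfp sources the summed proliferation markers were at 1320 to 3300 CPM in DP and 71.2 to 911 CPM in NEG. The summed myeloid list was at 44.1 to 229 CPM in DP and 11.9 to 27 CPM in NEG, with Cd74 at 25.2 to 143 CPM and 3.49 to 19.6 CPM, Csf1r at 0 in both and Lyz2 reaching 0.594 CPM in DP and 0 in NEG. The summed natural killer (NK) cell list was at 49.7 to 98.8 CPM in DP and 58.0 to 200 CPM in NEG. In that list Klrb1c was at 0 in DP and at 12.1 to 23.5 CPM in NEG. The B cell gene Cd79b was at 0 to 1.62 CPM in DP and at 35.7 to 48.5 CPM in NEG, with Pax5 at 0 in both. The summed Treg list was at 297 to 595 CPM in DP and 86.3 to 103 CPM in NEG, with Ctla4, Il2ra and Ikzf2 called higher, while Foxp3 reached 0.117 CPM in DP and was at 0 in NEG. The part of these in the member changes was not tested.

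Bax stood apart by batch, a pattern noticed after its values were seen. In the 15 CD8 libraries labelled batch 3 (the third yfp source, the second Ebi3L source and the third Ebi3L source) Bax was at 210.6 to 459.0 CPM with a median of 278.3, and in the 45 libraries of batches 1 and 2 it was at 104.7 to 238.0 CPM with a median of 151.9. In DP cells it was at 370.4 to 459.0 CPM in batch 3 and at 154.3 to 238.0 CPM in the other batches, and in each of the 5 populations the lowest library of batch 3 was above the highest of the others. The rise of Bax in DP against SP was present in 3 of 3 sources of batch 3 and in 9 of 9 sources of batches 1 and 2. Medians over the same libraries were lower in batch 3 for Bcl2 (250 CPM, against 420.3 in batches 1 and 2), Pmaip1 (17.16 against 30.18), Bcl2l1 (16.18 against 26.32), Bbc3 (2.729 against 5.412), Mcl1 (159.7 against 233.6) and Bid (53.41 against 72.2). They were higher in batch 3 for Bcl2l11 (62.87 against 56.38), Bmf (1.074 against 0.5201) and Bak1 (1.195 against 1.049). The ranges of these 9 members overlapped between batches. The difference was present within a genotype: the first and second yfp sources, of batch 1, had 166.9 and 214.4 CPM in DP cells and the first Ebi3L source, also of batch 1, had 222.5 CPM. A single library set held the second Ebi3L source (batch 3, 370.4 CPM in DP) and the second yfp source (batch 1, 214.4 CPM). Genotype and batch cannot be told apart in that set. These CPM carry no TMM factors, which were 0.782 to 0.915 in batch 3 and 0.974 to 1.10 in the other batches in the fit of all sources. With TMM-scaled CPM, mean Bax in DP cells went from 326.4 to 383.4 CPM in Ebi3L and from 280.1 to 319.3 in yfp sources. It went from 186.8 to 181.1 CPM in DKO and from 196.2 to 187.9 in Il10 sources. The cause of the batch pattern was not tested. Batch 3 held no DKO or Il10 library.

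Between genotypes of the same CD8 population no member passed. In edgeR, with batch as a block, 0 of 150 pairs of member and comparison did, and 0 did in limma, while 13 had an unadjusted p under 0.05 (8.67%, where 1.21% to 7.34% of all genes did in single comparisons). DESeq2 called 4, and edgeR without the filter on low counts called 3. The shares of all genes that these alternatives called are not reported here, so their member counts have no background beside them. Of all genes, 0% to 0.00811% passed in the 15 comparisons of edgeR. The pairs that came closest were mainly of Bcl2l1.

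In SP cells, Bcl2l1 was at 64.35, 53.76, 61.23 and 48.71 CPM in DKO sources, at 62.26 and 37.44 CPM in Il10 sources, at 61.94, 31.15 and 23.61 CPM in Ebi3L sources, and at 22.55, 19.66 and 11.68 CPM in yfp sources. Every library of the 3 knockout genotypes was above every yfp library. The log2 differences from yfp were 1.27 ± 0.26 in DKO, 1.02 ± 0.32 in Il10 and 1.32 ± 0.25 in Ebi3L, with edgeR adjusted p of 0.205, 1 and 0.267. DESeq2 gave adjusted p of 0.00133 in DKO and 0.00161 in Ebi3L. In DP cells Bcl2l1 was at 50.16, 66.19, 52.89 and 44.76 CPM in DKO sources, at 50.16 and 28.65 CPM in Il10 sources, at 30.72, 16.76 and 31.15 CPM in Ebi3L sources, and at 21.41, 24.84 and 9.558 CPM in yfp sources. DKO and Il10 did not overlap yfp there and Ebi3L did. The DKO difference was 1.17 ± 0.29 (adjusted p = 0.627 in edgeR and 0.0277 in DESeq2).

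Bcl2 in DP cells was at 60.52, 83.67, 78.59 and 100.4 CPM in DKO sources, at 80.47 and 123.6 CPM in Il10 sources, at 54.21, 47.32 and 27.06 CPM in Ebi3L sources, and at 72.78, 143.0 and 107.9 CPM in yfp sources. The Ebi3L libraries were all below the yfp libraries. The difference was -1.30 ± 0.31 (adjusted p = 0.716 in edgeR and 0.0135 in DESeq2). The 2 Il10 libraries of SP cells lay far apart in Bcl2, at 40.49 and 287.9 CPM, which limits what that genotype can show. Whether the change of DP against NEG differed by genotype was tested directly, and 0 of 30 pairs passed in edgeR, DESeq2 and limma. Of these, 2 had an unadjusted p under 0.05 (6.67%, where 3.12% to 4.94% of all genes did), Bcl2l1 in Il10 and Bcl2 in Ebi3L, and 0% of all genes passed.

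Other genes of the pathway were counted from 4 lists chosen by function: 16 further Bcl2 relatives, 12 genes of the apoptosome and caspases, 12 of the death receptor arm and 12 of the p53 and Foxo arm. In tumour against ndLN DN Tregs, where 23.4% of all genes passed, 4 of 13 tested relatives rose and none fell. Among them Bnip3, a mitochondrial BH3-like protein, rose by 4.09 ± 0.32 (adjusted p = 3.89e-10), and the pro-survival Bcl2a1b and Bcl2a1d rose by 2.03 ± 0.20 and 2.82 ± 0.28. The Bcl2a1 genes are near-identical copies, and how the counting split their reads is uncertain. The median of the relatives was 1.76, against 0.01 over all genes.

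In the same comparison 3 of 12 apoptosome and caspase genes rose and none fell, among them Apaf1, the scaffold of the apoptosome, by 2.22 ± 0.22 and Cycs, cytochrome c, by 0.76 ± 0.21. Of the death receptor arm 2 rose and 1 fell of 12, with Fasl higher by 1.08 ± 0.38, Birc2 higher by 0.89 ± 0.16 and Fas lower (-0.61 ± 0.18). Of the p53 and Foxo arm 3 rose and 3 fell of 12. Cdkn1a, a p53 target that arrests the cycle, rose by 5.14 ± 0.82, while Trp53 (-0.60 ± 0.10) and Foxo1 (-1.05 ± 0.14) fell.

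In DP against NEG CD8 cells of all sources, where 57.1% of genes passed, 6 of 14 relatives rose and 1 fell. Bcl2a1d rose by 3.92 ± 0.27, Bcl2a1b by 2.49 ± 0.15 and Bnip3 by 1.44 ± 0.20. Of 12 apoptosome and caspase genes 6 rose and 1 fell, with Htra2 higher by 1.40 ± 0.18 and Cycs by 1.13 ± 0.10. Of the death receptor arm 2 rose and 6 fell of 12. Traf2, an adaptor of TNF receptors, rose by 0.83 ± 0.10, and among those that fell were Fas (-1.37 ± 0.18) and Cflar (-0.93 ± 0.14), which encodes the caspase-8 inhibitor FLIP. Of the p53 and Foxo arm 5 rose and 4 fell of 12, with Cdkn1a higher by 4.37 ± 0.42 and Foxo1 (-2.43 ± 0.13) and Trp53inp1 (-2.34 ± 0.13) lower. In naive DN Tregs against Teff, where 12.2% of genes passed, 4 of 13 relatives rose and none fell, among them Bcl2a1b by 1.94 ± 0.21. There 2, 3 and 2 of the 12 genes of the other lists rose, and 1 death receptor gene fell.

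The genes whose group means were most like a member's were found by Pearson correlation of log2(CPM + 1), over 10 Treg-series groups and 9513 genes and over 20 CD8 groups and 9473 genes. For Bcl2 these were Rpl18 in the Treg series (r = 0.992) and Pim2, a survival kinase, in CD8 cells (r = 0.979). For Pmaip1 they were Serpina3f (0.992) and Irf8 (0.958). For Mcl1 they were Syp (0.963) and Avl9 (0.956), for Bcl2l1 Stx11 (0.988) and Trib1 (0.927), and for Bcl2l11 Shisa5 (0.968) and Fosl2 (0.883). Bid was closest to Ahr (0.967) and Rcc1 (0.941), and Bax to Slc36a4 (0.949) and Cox6a1 (0.951). Groups share batches and sources, these are the highest of many correlations, and they describe likeness of pattern only.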

How the data were processed

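Counts per gene were deposited by the authors as 1 table of raw counts for 90 libraries. Reads had been aligned with STAR to mm10 and counted with featureCounts of Subread, per the submitters' processing notes. Their versions, the gene annotation and the use of strand are not given there. Cells were sorted in 2 rounds and libraries were made with SMART-Seq and Nextera XT, per the labels' protocols, so counts are of amplified full-length cDNA without molecular identifiers and intervals cover counting error only. The authors also deposited 2 tables of normalised log2 values, with 9885 genes for Tregs and 10150 for CD8 cells, used here for 1 alternative. Bbc3, Bmf and Bak1 are not in the Treg log2 table as given here and Bmf is not in the CD8 one.

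CPM was computed from library totals. Tests were edgeR 4.0.16 (R 4.3.3) quasi-likelihood tests with TMM factors and filterByExpr, with Benjamini-Hochberg adjustment over all genes and a threshold of 0.05. The Treg fit used 30 libraries with batch as a block, the yfp fit 15 libraries with batch, the fit of all sources 60 libraries with the 12 sources as a block, and genotypes were compared within a population over 12 libraries with batch. The standard error of a log2 fold change was taken from its F statistic. In the Treg series the replicate number is the batch label, and libraries of 1 batch deviated together from their group means over all 135 pairs (median r = 0.26, lowest 0.11). The median over 270 other pairs was -0.21. It is no independent reference, because centring groups on their means ties negative correlations between batches to positive ones within them. Libraries of 1 set did so in the yfp populations (30 pairs, median r = 0.53). Over CD8 groups of all genotypes, libraries of 1 source had a median r of 0.32 over 120 pairs (lowest 0.049), with 105 pairs above 0.1. Alternatives were DESeq2 1.42.0, RLE factors, library totals alone, limma 3.58.1 on the deposited log2 values, no filter on low counts, no block or another block, TMM-scaled CPM for levels, and leaving out each batch or source. Members and gene lists were chosen with earlier results of these data known. Every member is named, other list genes are among the 3 with the smallest adjusted p in a list and comparison, some of which are not reported here, and the most alike gene of each member was named if it averaged at least 5 CPM. Exon lengths and BH3 sequences came from GENCODE annotation and transcripts, and promoters from RefSeq. Each group has 2 to 4 libraries per CD8 genotype or 3 per Treg group.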

Additional observations from a re-analysis of the deposited data

Results flagged for a closer look

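In 3 groups of 4 CD8 libraries, 1 library lay far from the other 3, each time the fourth DKO source. Mcl1 was at 283.0 CPM in NDLN of that source, against 233.6 to 238.1 CPM in the other 3, a gap of 0.909 of the group's range. Bcl2l11 was at 89.53 CPM in its DP cells, against 54.12 to 57.14 CPM (0.915), and Bak1 was at 2.443 CPM in its INT cells, against 0.7689 to 1.054 CPM (0.83). Each gap exceeded the critical share for groups of 4. The 50 tests covered the 10 members in the 5 DKO populations. Chance alone marks about 1 in 20 tests, so marks of this number can arise by chance.

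The change of Bcl2 in tumour against ndLN Tregs differed by 2.58 on the log2 scale between IL10 and DN Tregs, and that of Mcl1 differed by 0.54, both by the edgeR interaction term. Both depended on single batches, as given with those comparisons.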

How the results depend on the processing

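Of 60 member calls, 35 held under every alternative that tested them and 25 were lost under at least 1, while 28 of 400 uncalled pairs of member and comparison were called under some alternative. No result changed direction among the called values. The number of member calls over the 9 comparisons between Treg subsets was 15 and fell to 7 without the replicate block, over the 3 tumour against ndLN comparisons it was 9 and fell to 5, and for the 2 differences between subsets it was 2 and fell to 0. The block therefore bears on these counts, and the numbers pair the libraries by batch label. In the CD8 fits, taking the block out or replacing it changed 1 call, that of Bcl2l11 in yfp NEG against NDLN. With a batch or source left out, calls ranged from 2 to 3 for naive DN Tregs against Teff (4 with all), from 8 to 12 for Treg subsets, from 5 to 7 for tumour against ndLN, from 0 to 1 for the differences between subsets, from 4 to 6 for yfp populations (7 with all, 4 without the third source) and from 22 to 24 for all sources (23 with all). DESeq2 gave 4 calls for the differences between subsets and 4 between CD8 genotypes, where edgeR gave 2 and 0, and edgeR without the filter on low counts gave 3 between genotypes. How many of all genes these alternatives called is not reported here. For genotype differences of DP against NEG, 0 calls became 1 without the second Il10 source. The causes were not tested. With TMM-scaled CPM, 284 of 300 group means stayed within 1 SD. Depth limits Bmf, which had 3 counts or fewer in 7 Treg-series and 21 CD8 libraries, and groups of 2 Il10 libraries limit the genotype comparisons.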
